A study of Mus musculus with 18 samples.

Results

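Respiratory complex I of the mitochondrion is built from subunits of nuclear and of mitochondrial genes, and the 38 nuclear genes of the mouse that carry the subunit names are described here in muscle after artery ligation. They were chosen by symbol: protein-coding genes that begin with Ndufa, Ndufb, Ndufc, Ndufs or Ndufv (assembly factors, Ndufaf, left out) whose normalized counts averaged 10 or more over 18 libraries. The table held 42 such symbols among 20922 genes. The 4 left out were processed pseudogenes, and every protein-coding one passed the minimum, from Ndufa4l2 at a mean of 44.5 upward. All 38 were among the 12262 genes tested. The rule used no difference between groups, but the members were chosen with earlier results of these data known.

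RNA was sequenced from the tibialis anterior, a fast muscle at the front of the lower leg, collected at day 36 after ligation of the femoral artery of 1 limb, a model of peripheral artery disease. All mice carried floxed Bmal1 (Bmal1 fx/fx), the activator of the circadian clock, and the cross brought in ACTA-rtTA-TRE-Cre, in which doxycycline turns on Cre under a skeletal muscle actin promoter. Doxycycline was given by gavage on consecutive days, and surgery followed a week later. The groups were WT (controls) and BKO (deletion of Bmal1 in skeletal muscle), each with 5 libraries of intact contralateral muscle and 4 of ligated muscle. The labels list the Cre genotype as +/+ for controls and -/- for knockouts, so each genotype direction rests on the group names. Total counts of the targeted gene, listed as Arntl, did not check the labels. They were 56.3 ± 11.8 in WT and 49.9 ± 7.0 in BKO intact limbs (SD, n = 5 each), 16.2 ± 2.72 in WT and 70.0 ± 8.35 in BKO ligated limbs (SD, n = 4 each), and the deleted part of the gene cannot be seen in a count per gene. The sources used here give no age, sex or time of day of collection.

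Complex I takes electrons from NADH, passes them along iron-sulfur clusters to ubiquinone, and pumps protons across the inner membrane. It is shaped like an L. The matrix arm has a part that takes up the electrons and a part that hands them to ubiquinone, and the membrane arm holds the pumps, all of them encoded in mitochondrial DNA. A few of the nuclear subunits, the core, carry the flavin, the clusters and the quinone site. The others are accessory and surround the core. In muscle the complex feeds the respiratory chain of oxidative fibres, and its nuclear genes are known targets of the coactivator PGC-1 alpha, the oestrogen-related receptors, NRF1 and GABP.

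Some measures of the whole libraries moved with the groups and stand beside the results. Depth was 14.1 to 25.6 M (mega) reads per library, of which 27316 to 64783 fell in the 38 genes. The mitochondrial ribosomal RNA mt-Rnr2 took 31.9% to 36.1% of the reads in intact limbs and 38.1% to 55.5% in ligated limbs. The BKO ligated libraries 4 and 5 had the most, 51.9% and 55.5%, and stood apart from the other 2 of their group. The summed level of 8 adipocyte markers was 2909 ± 291 in WT intact and 9244 ± 1281 in WT ligated limbs, 2958 ± 247 in BKO intact and 5970.5 ± 1626 in BKO ligated limbs (SD). Plin4 (mean 2093) and Fabp4 (mean 729) made up most of the WT intact sum. The median log2 fold change of the 8 markers with ligation was 5.03 in WT and 4.27 in BKO. The summed level of 12 myofibre markers was 0.74 of the WT intact level in WT ligated and 0.85 in BKO ligated limbs. In the same order, the summed levels were 2.49 and 2.10 for 7 fibroblast and matrix markers, 1.79 and 1.98 for 6 endothelial, 1.35 and 1.96 for 7 slow fibre and 1.37 and 0.87 for 8 macrophage markers. In WT, Atp2a2, the highest of the slow fibre genes, went from a mean of 243 in intact to 493 in ligated limbs. The slow fibre median log2 fold change with ligation was 0.03 in WT and 1.22 in BKO. In WT 4 estimates lay above 0 and 3 below, and in BKO 5 and 2. The macrophage median was 0.75 in WT (7 above 0, 1 below) and 0.24 in BKO (6 above, 2 below). Cd163 fell, from 76.7 to 25.4 in WT and from 57.3 to 16.6 in BKO. Relative to WT intact, BKO intact limbs were at 1.00 for myofibre, 0.89 for fibroblast and matrix and 1.09 for endothelial markers. They were at 0.84 for slow fibre and 0.85 for macrophage markers. The myofibre sum rests largely on Myh4 (mean 635010 in WT intact), and single myofibre markers moved both ways. Their log2 fold changes with knockout in intact limbs ran from -0.40 to 0.67, 7 above and 5 below 0, with a median of 0.12. The brown fat marker Ucp1 was at 0 in 3 groups and at 0.70 ± 0.86 (SD, n = 4) in the BKO ligated one. In bulk muscle, fewer fibres and less RNA per fibre cannot be told apart. Effects also moved with transcript length. With knockout in intact limbs, the 1033 genes with transcripts under 1 kb had a median log2 fold change of 0.13, and 16.7% of them were higher. With ligation in BKO their median was -0.21, and 36.1% were lower. Their median was -0.23 in the difference between the ligation effects of BKO and WT, where 7.94% were lower. The 38 genes are short, with a median transcript of 873 nt (all genes tested, 2938 nt), and 24 of them lie under 1 kb.

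Levels were set side by side per kb of annotated transcript over all 18 libraries. Ndufb9 had 3467 normalized counts per kb, Ndufa4 3273 and Ndufb8 2590.0. At the other end, Ndufa4l2 had 47.7, Ndufb2 228, Ndufab1 255 and Ndufb4 310.4. The levels per kb of the other members shown ran from 466 (Ndufs4) to 1777 (Ndufa6). The median of the 38 levels per kb was 906 in WT intact, 963 in WT ligated, 1289 in BKO intact and 961 in BKO ligated limbs. Ndufa4 carries the family name but is a subunit of cytochrome c oxidase, and Ndufa4l2 is its paralogue, known to be induced by hypoxia. Ndufab1 is the mitochondrial acyl carrier protein, which sits in complex I at 2 places and also works in lipoic acid synthesis. These 3 were kept as members and counted apart from the arms.

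Since the deleted gene encodes a DNA-binding activator, the promoters of the members were searched for its E-box, CACGTG. RefSeq windows of GRCm38.p6, 300 bases each and reaching from 250 before to 50 after the start, were found for 33 of the 38. Ndufa4l2, Ndufb9 and Ndufs1 were among those not matched. Ndufa2 was not searched, because the windows on its chromosome were left out beforehand. Those windows are missing from the background of all genes too. The E-box, searched on both strands as were all motifs, was in the windows of 2 members, Ndufa7 and Ndufv1 (6.06% of the 33), and in 8.09% of all 27025 genes with windows. The NRF1 motif, GCGCA and GCGC with any 1 base between, was in 7 members (21.2%, all genes 5.19%). They were Ndufa5, Ndufa6, Ndufa8, Ndufa11, Ndufb4, Ndufs5 and Ndufs6. The YY1 motif, AAGATG followed directly by GCGGC, was in 4 members (12.1%, all genes 0.755%), namely Ndufa9, Ndufs4, Ndufs6 and Ndufs7. The ETS motif bound by GABP, CCGGAAGT, was in Ndufs3 alone (3.03%, all genes 4.31%), and the motif of the oestrogen-related receptors, TCAAGGTCA, was in the windows of 0 members (all genes 0.466%). Matches to different motifs did not overlap in the members, and a match is a description of letters, not of binding.

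The stretches of 100 bases below are printed 5′ to 3′ on the strand of the gene, from RefSeq on GRCm38.p6, with the motif in capitals. They show the 2 E-box members and 2 NRF1 members that moved in opposite directions with ligation in WT. Also shown are the members with the largest rise with knockout and the largest fall with ligation, whose windows held none of the 5 motifs. Starts are those of RefSeq and can differ from the gene positions given elsewhere, which are from GENCODE. By those positions the Ndufa12 stretch lies inside the gene, and the Ndufb7 and Ndufs6 stretches lie partly inside. Ndufa7 is at chr17:33824472-33824571, Ndufv1 at chr19:4012856-4012955 (100 bases further upstream than the others), Ndufa11 at chr17:56717662-56717761, Ndufs6 at chr13:73328483-73328582, Ndufb7 at chr8:83566658-83566757 and Ndufa12 at chr10:94198935-94199034.
Ndufa7: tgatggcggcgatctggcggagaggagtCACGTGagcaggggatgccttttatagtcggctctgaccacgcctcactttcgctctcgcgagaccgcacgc
Ndufv1: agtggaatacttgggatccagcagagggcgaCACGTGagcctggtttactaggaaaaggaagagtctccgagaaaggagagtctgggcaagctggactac
Ndufa11: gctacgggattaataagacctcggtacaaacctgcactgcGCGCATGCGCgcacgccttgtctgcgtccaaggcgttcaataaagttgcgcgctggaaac
Ndufs6: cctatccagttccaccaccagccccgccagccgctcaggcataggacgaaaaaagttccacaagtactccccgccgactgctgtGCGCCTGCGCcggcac
Ndufb7: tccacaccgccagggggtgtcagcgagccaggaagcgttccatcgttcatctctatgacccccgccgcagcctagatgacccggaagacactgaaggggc
Ndufa12: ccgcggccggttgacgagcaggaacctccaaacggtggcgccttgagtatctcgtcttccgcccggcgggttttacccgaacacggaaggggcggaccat

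The summed normalized count of the 38 genes was highest in the intact limbs of BKO mice. It was 37952 ± 3137 in WT intact, 50756 ± 2554 in BKO intact (SD, n = 5 each), 40961 ± 2740.3 in WT ligated and 42739 ± 3477 in BKO ligated limbs (SD, n = 4 each). BKO intact libraries, 48019 to 54237, lay above all WT intact libraries, 33773 to 42032, and above all ligated libraries of either genotype, which reached 45719. The BKO intact mean was 1.34-fold the WT intact mean. Each arm showed the same order of BKO above WT in intact limbs, from 1.31-fold in the proximal membrane arm to 1.40-fold in the distal membrane arm.

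**Figure D1:**
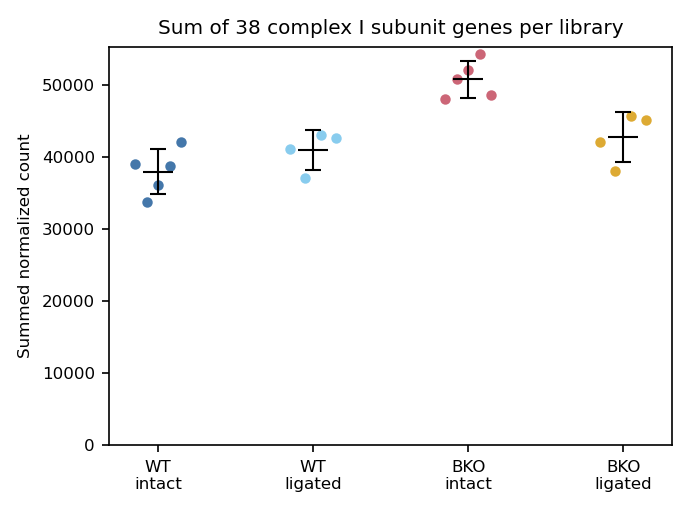
Sum of the normalized counts of the 38 genes in each library (points), with the mean and SD of each group (bars), for WT and BKO intact (n = 5) and ligated (n = 4) limbs. The BKO intact libraries, 48019 to 54237, lie above all others.

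In intact limbs, 33 of the 38 genes were higher in BKO than in WT, and 0 were lower (limma on log2(normalized count + 1), Benjamini-Hochberg adjusted p under 0.05 over all 12262 genes). Of all genes tested, 8.56% were higher and 9.75% lower. At an unadjusted p under 0.05 the counts were 34 and 0, and edgeR and DESeq2 on recovered reads gave 32 and 34 higher and 0 lower. All 38 estimates lay above 0, with a median log2 fold change of 0.39, against 0.00017 over all genes. The libraries of both groups did not overlap in 28 of the 38, BKO above WT, as in 7.14% of all genes. The genes that passed rose by 1.16-fold to 1.64-fold.

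All 8 genes of the electron-input part rose with knockout. Ndufv1 (chr19:4007384-4012806, minus strand), which binds NADH and the flavin, had 1979.7, 1633, 1713, 1896 and 2129 normalized counts in the WT intact libraries and 2587, 2654, 2550.0, 2939 and 2603 in the BKO intact ones. Ndufv2 (chr17:66078638-66101559, minus strand), an iron-sulfur subunit beside it, had 1998, 1714, 1816, 1909 and 2014 in WT and 2324, 2337, 2502, 2502 and 2282 in BKO. Ndufs1 (chr1:63143596-63176833, minus strand), the largest subunit of the matrix arm and carrier of several clusters, had 3039, 2676, 2680.4, 3113 and 3198 in WT and 3689, 3905, 4055, 4159 and 3582 in BKO. In each of these core genes every BKO library lay above every WT library. The log2 fold change was 0.52 ± 0.08 (SE) for Ndufv1 (adjusted p = 1.56e-04, limma), 0.34 ± 0.08 for Ndufv2 (adjusted p = 0.00291) and 0.40 ± 0.07 for Ndufs1 (adjusted p = 5.33e-04). Among the accessory genes of this part, Ndufa2, which has a thioredoxin-like fold, rose by 0.50 and Ndufv3 by 0.48 on the log2 scale. Ndufs4, needed to complete this part of the arm, rose by 0.42. The smallest rises in this part were those of Ndufs6, a zinc-binding subunit, at 0.27, and of Ndufa12, at 0.26.

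All 8 genes of the quinone-binding part rose too. Ndufs3 (chr2:90894634-90904827, minus strand), a core scaffold subunit, had 923, 843, 863, 1038 and 992 in WT intact and 1313, 1397, 1359.7, 1378 and 1304 in BKO intact libraries. Ndufs8 (chr19:3908863-3912774, minus strand), which carries iron-sulfur clusters, had 608, 540.1, 542, 615 and 605 in WT and 787, 894, 842, 956 and 775 in BKO. Neither overlapped between genotypes. Their log2 fold changes were 0.54 ± 0.09 (adjusted p = 1.75e-04, limma) and 0.54 ± 0.09 (adjusted p = 1.78e-04). The core gene Ndufs7 (chr10:80249121-80256794, plus strand), whose cluster is the last before ubiquinone, had 1245, 1055, 1115, 1304 and 1317 in WT and 1313, 1402, 1469.9, 1476 and 1339 in BKO, and the 2 groups overlapped. Its log2 fold change was 0.22 ± 0.08 (adjusted p = 0.0498, limma). Ndufa9, at the foot of the matrix arm, rose by 0.53, and Ndufa7, with an E-box in the printed stretch, rose by 0.46. Ndufa5 rose by 0.26 and Ndufa6, which docks an acyl carrier protein, by 0.24.

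**Figure D2:**
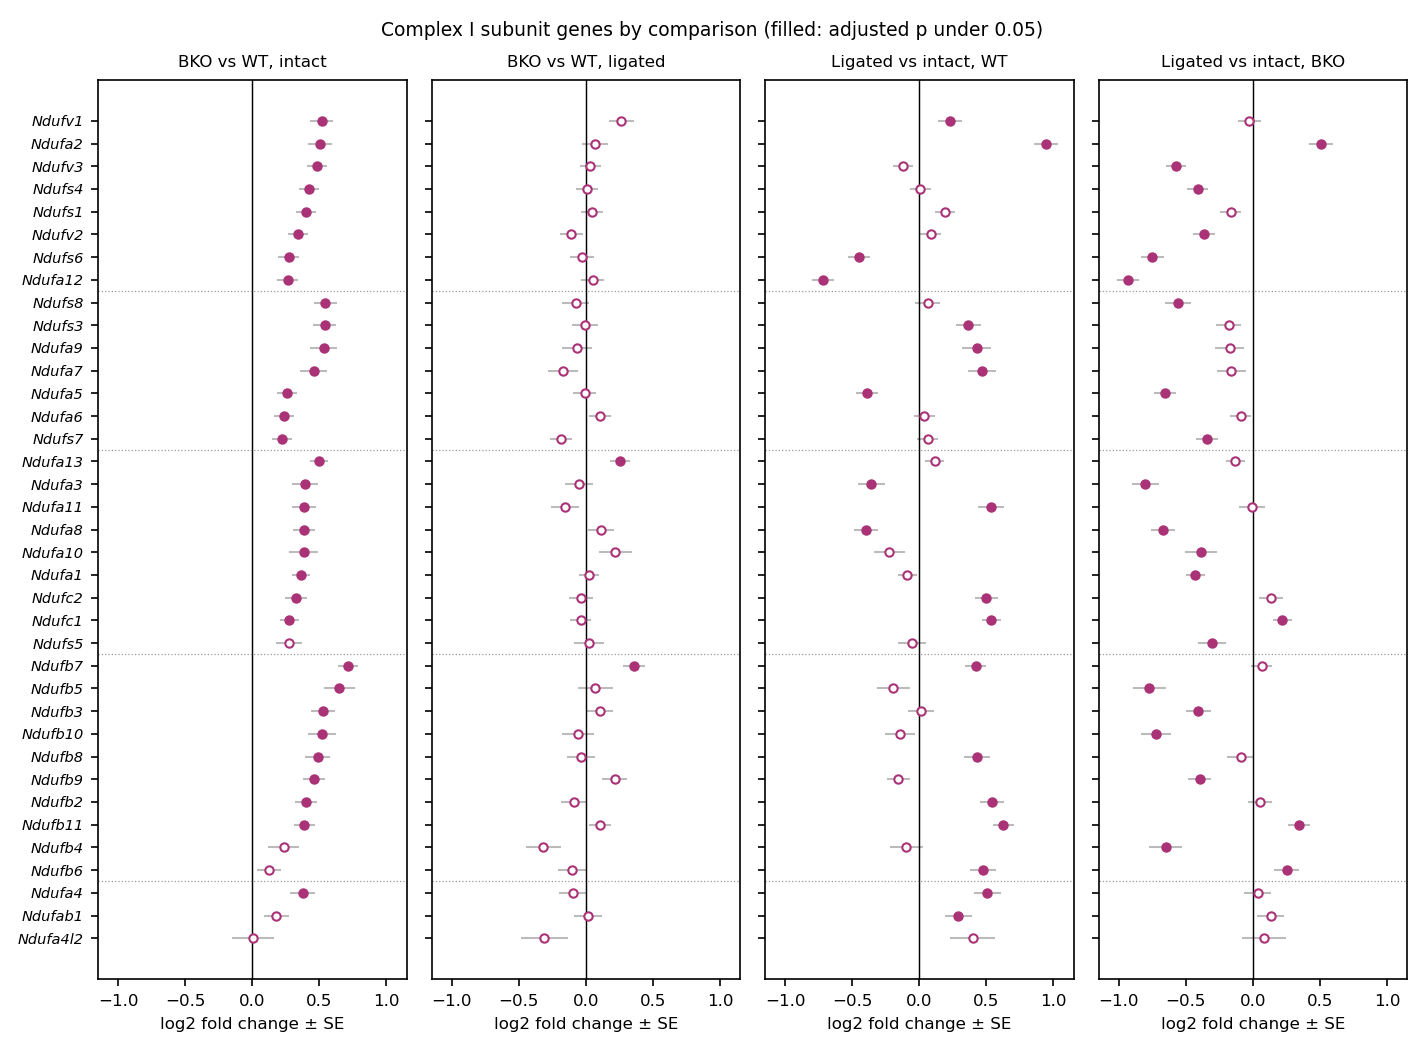
Log2 fold change of each of 37 of the genes (points, with SE) in 4 comparisons, filled where the adjusted p was under 0.05. Dotted lines part, from the top, the electron-input part, the quinone-binding part, the proximal and the distal membrane arm, and Ndufa4, Ndufab1 and Ndufa4l2. In the intact limbs all points lie above 0 and 32 are filled, and in the ligated limbs 2 are filled.

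In the membrane arm, 8 of 9 proximal and 8 of 10 distal genes rose with knockout in intact limbs. The largest rise of all members was that of Ndufb7 (chr8:83566671-83571626, plus strand), a distal subunit on the outer side of the membrane. Its libraries held 466, 457, 489.8, 526 and 555 normalized counts in WT intact and 798, 817, 852, 902 and 728 in BKO intact limbs, with no overlap. The log2 fold change was 0.72 ± 0.07 (1.64-fold, adjusted p = 7.67e-07, limma), also the smallest p of the 38. Ndufb5 rose by 0.65, Ndufb3 by 0.52, Ndufb10 by 0.52 and Ndufb8, whose protein is a common marker of complex I on blots, by 0.49. In the proximal part, Ndufa13, also known as GRIM-19, rose by 0.50. The X-linked Ndufa1 rose by 0.36 and Ndufa11 by 0.38. Ndufs5 was at 0.27 ± 0.10 (adjusted p = 0.0611), Ndufb4 at 0.23 ± 0.12 (adjusted p = 0.179) and Ndufb6 at 0.12 ± 0.09 (adjusted p = 0.404, all limma), and these 3 did not pass.

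Of the 3 genes counted apart, Ndufa4 alone passed. Ndufa4 (chr6:11900292-11907497, minus strand) had 1279, 1259, 1346, 1446 and 1633 in WT intact and 1705, 1828, 1837, 1784 and 1829 in BKO intact libraries, with no overlap and a log2 fold change of 0.37 ± 0.09 (adjusted p = 0.00727, limma). Its paralogue Ndufa4l2 (chr10:127514967-127517154, plus strand) had 38.7, 37.9, 52.2, 38.5 and 37.1 in WT and 43.6, 41.1, 40.4, 47.7 and 32.2 in BKO, which overlapped throughout. Its log2 fold change was 0.0037 ± 0.16, with a 95% interval of -0.32 to 0.33. Ndufab1 was at 0.18 ± 0.09 (adjusted p = 0.209, limma).

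Of the 33 calls, 27 held whichever 1 of the 18 libraries was left out. The other 6 were lost without any 1 of some libraries (limma). Ndufa10 was lost without WT intact 3 (adjusted p = 0.0577), and Ndufa12 without WT intact 3 or 4 or BKO intact 3 or 4 (up to 0.0649). Ndufa5 was lost without WT intact 3 or 4 or BKO intact 4 (up to 0.0635), and Ndufs6 without WT intact 3 or BKO intact 3 or 4 (up to 0.0676). Ndufa6 was lost without WT intact 4 or 5 or BKO intact 2, 3 or 4 (up to 0.0848), and Ndufs7 without any 1 of 12 libraries (up to 0.149, without WT intact 3). With transcript length taken out of the fold changes, 25 of the 38 rose, with a median of 0.29.

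In ligated limbs, the genotypes differed in 2 members. Ndufb7 and Ndufa13 were higher in BKO and 0 members lower, against 4.16% of all genes higher and 4.68% lower. At an unadjusted p under 0.05, 5 were higher and 2 lower (limma), and edgeR and DESeq2 gave 2 and 3 higher and 0 lower. The median log2 fold change was -0.00027, with 19 members above and 19 below 0. Ndufb7 had 630.2, 678, 659 and 700.0 in WT ligated and 844, 841, 946 and 801 in BKO ligated libraries, with no overlap and a log2 fold change of 0.36 ± 0.08 (adjusted p = 0.00741, limma). Ndufa13 was at 0.26 ± 0.08 (adjusted p = 0.0376, limma). The lowest estimate was that of Ndufb4, with 291, 267, 318 and 269 in WT and 233, 201, 218 and 269.6 in BKO, which overlapped. It was -0.32 ± 0.13 (adjusted p = 0.143, limma). Without the BKO ligated libraries 4 and 5, 0 members passed. The call of Ndufb7 held without any 1 library, and that of Ndufa13 was lost without any 1 of WT ligated 2, 4 and 5 and BKO ligated 5 (adjusted p up to 0.139, limma).

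The 7 core genes did not pass in ligated limbs, and the intervals bound what could have been missed. The 95% interval of the log2 fold change was 0.07 to 0.46 for Ndufv1 and -0.13 to 0.22 for Ndufs1. It was -0.21 to 0.20 for Ndufs3, -0.28 to 0.13 for Ndufs8, -0.28 to 0.07 for Ndufv2 and -0.36 to -0.01 for Ndufs7. Ndufa4l2 held 55.1, 46.1, 68.8 and 47.8 in WT and 46.0, 35.6, 41.9 and 50.6 in BKO ligated limbs, and these overlapped (log2 fold change -0.31 ± 0.18, adjusted p = 0.308, limma).

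**Figure D3:**
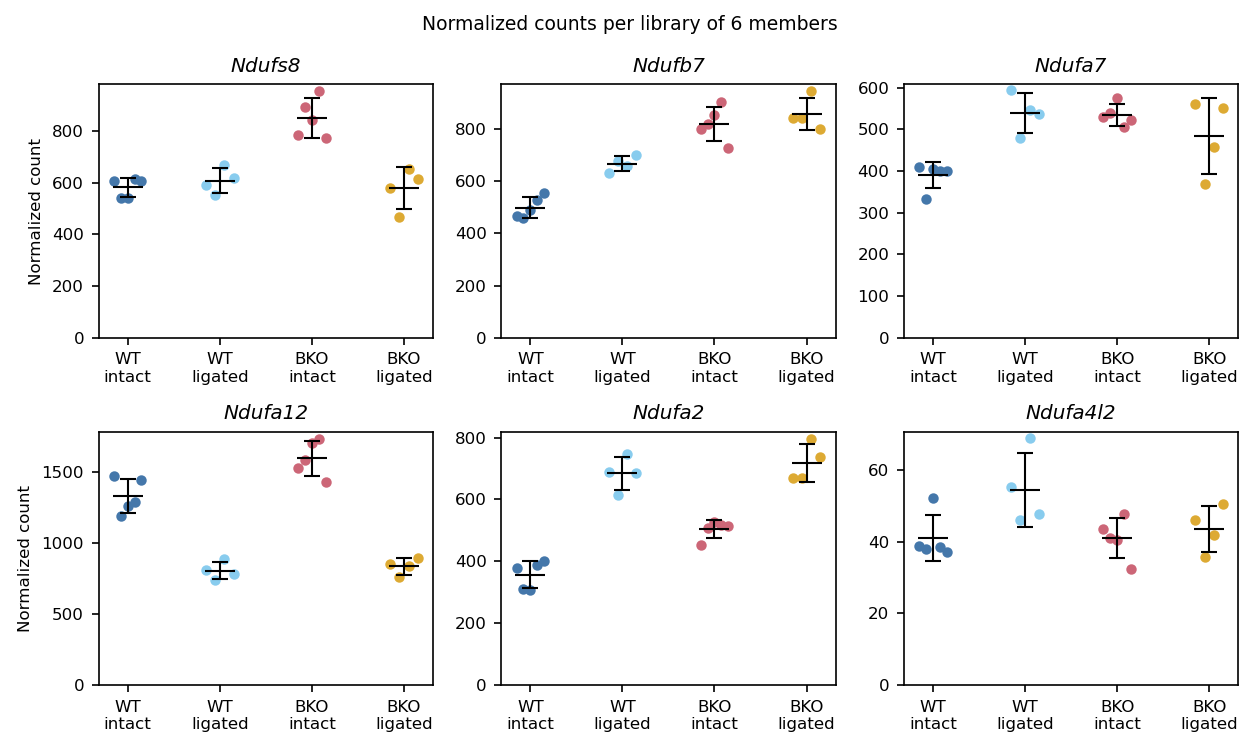
Normalized count per library (points) of 6 genes, with group means and SD (bars), for WT and BKO intact (n = 5) and ligated (n = 4) limbs. Ndufs8 is high in BKO intact alone, Ndufb7 is lowest in WT intact, Ndufa12 is low and Ndufa2 high in the ligated limbs of both genotypes, and the groups of Ndufa4l2 overlap.

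Ligation moved the members in both directions in WT mice. Of the 38, 16 were higher and 5 lower in ligated than in intact limbs (limma), while 18.7% of all genes were higher and 21.1% lower. The median log2 fold change was 0.10 and that of all genes -0.0025. The largest rise and the smallest p belonged to Ndufa2, whose libraries held 377, 312, 307, 388 and 400.4 in WT intact and 689, 616, 746 and 687 in WT ligated limbs. No values overlapped, and the log2 fold change was 0.94 ± 0.09 (1.92-fold, adjusted p = 1.06e-07, limma). The largest fall belonged to Ndufa12 (chr10:94198720-94221443, plus strand), which sits in the same electron-input part. It had 1466, 1188, 1260.4, 1289 and 1442 in WT intact and 809, 740.4, 889 and 779.8 in WT ligated limbs, without overlap, and a log2 fold change of -0.72 ± 0.08 (1.65-fold lower, adjusted p = 6.97e-07, limma).

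The other members that rose with ligation in WT were spread over the arms. Distal membrane arm genes that rose were Ndufb11 (0.63), Ndufb2 (0.54), Ndufb6 (0.48), Ndufb8 (0.43) and Ndufb7 (0.42, all log2). Proximal genes that rose were Ndufc1 (0.54), Ndufa11 (0.53) and Ndufc2 (0.50). In the quinone-binding part Ndufa7, Ndufa9 and Ndufs3 rose, by 0.47, 0.43 and 0.36. Falls came from Ndufs6 (-0.45), from the intermembrane space subunit Ndufa8 (-0.40), from Ndufa5 (-0.39) and from Ndufa3 (-0.36). Ndufa4 had 2109, 1702, 2101 and 1994 in the ligated libraries, all above the intact ones, and rose by 0.51.

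The core genes Ndufs3 and Ndufv1 rose with ligation in WT. Ndufs3 held 1227, 980.4, 1342 and 1267 in WT ligated limbs, where library 4 lay within the intact range. Ndufs8 held 592, 555, 669 and 617 and Ndufv2 1969, 1825, 2240.0 and 1983, both overlapping the intact libraries. Ndufv1, with 2098, 1979, 2223 and 2451 in ligated limbs, rose by 0.23 ± 0.09 (adjusted p = 0.0461, limma), and its groups overlapped. Ndufs1 (3427, 3067, 3526 and 3388) was at 0.19 ± 0.08 and Ndufs7 (1279.9, 1145, 1351 and 1250.0) at 0.06 ± 0.08, and neither passed. The calls of Ndufv1 and Ndufab1 were lost when some 1 library was left out, with adjusted p up to 0.167 for Ndufv1 (without WT ligated 6) and 0.107 for Ndufab1 (without WT ligated 5; limma). The hypoxia-inducible Ndufa4l2 was at 0.40 ± 0.17 (adjusted p = 0.0641, limma) and its groups overlapped.

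In BKO mice more members fell than rose with ligation. Of the 38, 4 were higher and 18 lower (limma), against 22.1% of all genes higher and 25.1% lower, with a median log2 fold change of -0.18 and of -0.0036 over all genes and -0.21 over those with transcripts under 1 kb. Without BKO ligated 4 the members' median was -0.11. With transcript length taken out, 8 were higher and 13 lower and the median was -0.015. Without the BKO ligated libraries 4 and 5, 3 were higher and 17 lower. The lowest and most certain estimate was again that of Ndufa12, with 1528, 1580.2, 1700.3, 1731 and 1427 in BKO intact and 852, 756, 834 and 893 in BKO ligated limbs. Its groups did not overlap, and the log2 fold change was -0.93 ± 0.08 (1.91-fold lower, adjusted p = 2.20e-08, limma). The highest was again Ndufa2, with 454, 507, 526, 518 and 515 in intact and 671, 669, 795 and 737 in ligated limbs, no overlap, and a log2 fold change of 0.51 ± 0.09 (adjusted p = 1.37e-04, limma).

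Among the core genes, Ndufs8, Ndufv2 and Ndufs7 fell with ligation in BKO. Ndufs8 held 581, 466, 655 and 616 in BKO ligated limbs, all below the BKO intact libraries, with a log2 fold change of -0.56 ± 0.09 (adjusted p = 6.65e-05, limma). Ndufv2 held 1937, 1558, 1926 and 2027 and Ndufs7 1234, 1023, 1124 and 1041, also all below the intact libraries, with log2 fold changes of -0.37 and -0.34. Ndufv1 (2389.6, 2415, 3051 and 2659) and Ndufs1 (3408, 3026, 3726 and 3704) did not pass, at -0.03 and -0.16. Ndufs3, with 1222, 998, 1282 and 1289.6 in ligated limbs, lay below all BKO intact libraries and was at -0.18 ± 0.09 (adjusted p = 0.121, limma). In the proximal membrane arm 5 genes fell, Ndufa3 (-0.80), Ndufa8 (-0.67), Ndufa1 (-0.43), Ndufa10 (-0.39) and Ndufs5 (-0.31). In the distal membrane arm 5 fell, Ndufb5 (-0.77), Ndufb10 (-0.72), Ndufb4 (-0.65), Ndufb3 (-0.41) and Ndufb9 (-0.40). The accessory genes of the matrix arm that fell were, beside Ndufa12, Ndufs6 (-0.75), Ndufa5 (-0.66), Ndufv3 (-0.57) and Ndufs4 (-0.41). Ndufa4 held 1748, 1486, 2097 and 2101 and Ndufa4l2 46.0, 35.6, 41.9 and 50.6, and neither differed from the intact limbs beyond its spread (0.03 ± 0.10 and 0.08 ± 0.17).

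The members kept nearly the same order in both ligation comparisons, which share no library. Ndufa2, Ndufb11, Ndufb6 and Ndufc1 were higher in both, and Ndufa12, Ndufa3, Ndufa5, Ndufa8 and Ndufs6 were lower in both. A further 12 rose in WT alone by the threshold and 13 fell in BKO alone, 4 passed in neither, and 0 passed in opposite directions. The matching shares over all genes were not counted, so these counts do not set the members apart from other genes. Across the 38 genes, which are not independent and share their libraries, the effects of both genotypes had a Pearson r of 0.923 and a Spearman rho of 0.906 as a description. Across all 12262 genes r was 0.752. In BKO the call of Ndufb6 was lost without any 1 of BKO intact 1, 2 and 5 and BKO ligated 2, 5 and 6 (adjusted p up to 0.101), that of Ndufc1 without BKO ligated 5 (adjusted p = 0.0584) and that of Ndufs5, at -0.31, without any 1 of BKO intact 4 and BKO ligated 2 and 4 (adjusted p up to 0.0763, limma).

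**Figure D4:**
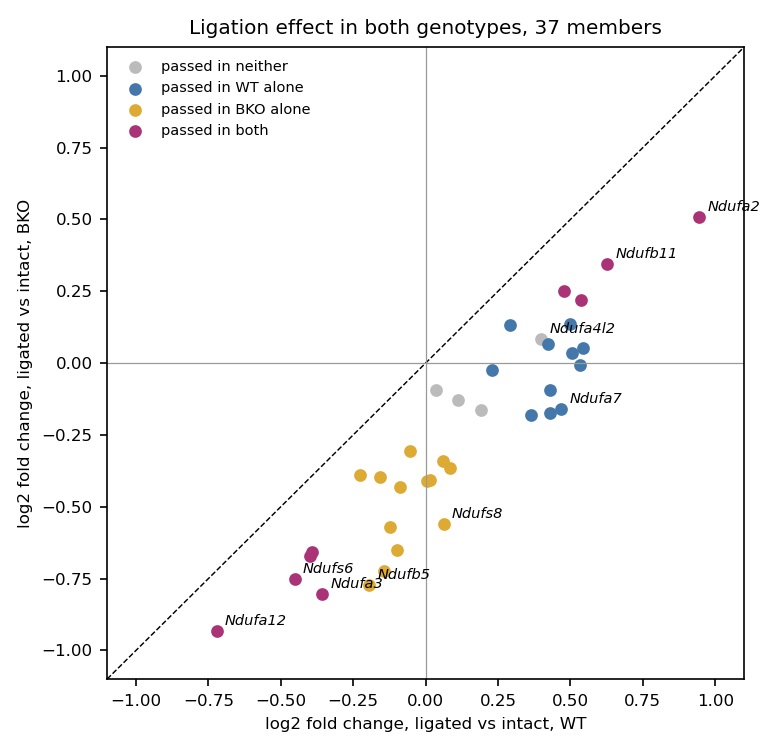
Log2 fold change with ligation in WT (x axis) and in BKO (y axis) for 37 of the genes, coloured by the comparisons in which they passed, with a dashed line where both would be equal. All points lie below the line, with Ndufa2 at the upper right and Ndufa12 at the lower left.

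The difference between the ligation effects was tested as an interaction, BKO minus WT. Of the 38, 14 had a lower effect in BKO and 0 a higher one (limma), against 2.97% of all genes lower and 3.04% higher. All 38 estimates lay below 0, with a median log2 difference of -0.36, while 51.0% of all genes lay below 0 and the median of genes with transcripts under 1 kb was -0.23. At an unadjusted p under 0.05 the counts were 29 and 0, and edgeR gave 13 lower, DESeq2 24 lower, and both 0 higher. The interaction uses the same libraries as the knockout comparison in intact limbs, so the 2 sets of values are not independent. The count was the least settled here. It was 0 with transcript length taken out, 2 without BKO ligated libraries 4 and 5, 3 without an intensity trend, and 5 to 21 when 1 library was left out. It was 5 without WT ligated 5 or 6, 6 without BKO ligated 4, 7 without WT ligated 2, 8 without WT intact 3 or BKO intact 3 or 4, 9 without WT intact 4 or BKO intact 2, and 21 without WT ligated 4.

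Ndufs8 had the smallest p of the interaction, with a log2 difference of -0.62 ± 0.13 (adjusted p = 0.0108, limma). In the intact limbs it was high in BKO, and in the ligated limbs it had 608 ± 47.8 in WT and 579.5 ± 81.3 in BKO (SD, n = 4 each). The lowest difference was that of Ndufa7 (chr17:33824572-33838317, plus strand), whose window holds an E-box, at -0.63 ± 0.15 (adjusted p = 0.0182, limma). Its libraries held 409, 334, 405, 401 and 400.4 in WT intact and 595, 480.1, 547 and 536 in WT ligated limbs, with no overlap. They held 529.9, 539, 576, 507 and 521 in BKO intact and 561, 368, 457 and 552 in BKO ligated limbs, where libraries 4 and 5 lay below all intact ones and 2 and 6 within their range. Ndufs3 was at -0.54 ± 0.13 and Ndufv3 at -0.45 ± 0.11. These 4 passed whichever 1 library was left out, but no member passed under every setting tried. Of the other 10, Ndufv2 (-0.45) was lost without WT ligated 5 (adjusted p = 0.0570), Ndufb2 (-0.49) without WT ligated 5 or 6 (up to 0.0547), Ndufa9 (-0.60, up to 0.0535) and Ndufa11 (-0.54, up to 0.0575) each without any 1 of 3 libraries, and Ndufa1, Ndufa4, Ndufb8, Ndufb10, Ndufs4 and Ndufs7 each without any 1 of at least 9 (limma). The difference nearest to 0 was that of Ndufa6 (chr15:82350140-82354322, minus strand), which held 1059.5, 987, 872, 918 and 1028 in WT intact, 975, 936, 1024 and 1052 in WT ligated, 1077, 1147, 1194, 1223 and 1081 in BKO intact and 999, 1004, 1225 and 1076 in BKO ligated limbs. It was -0.13 ± 0.11 and overlapped between intact and ligated limbs in both genotypes.

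**Figure D5:**
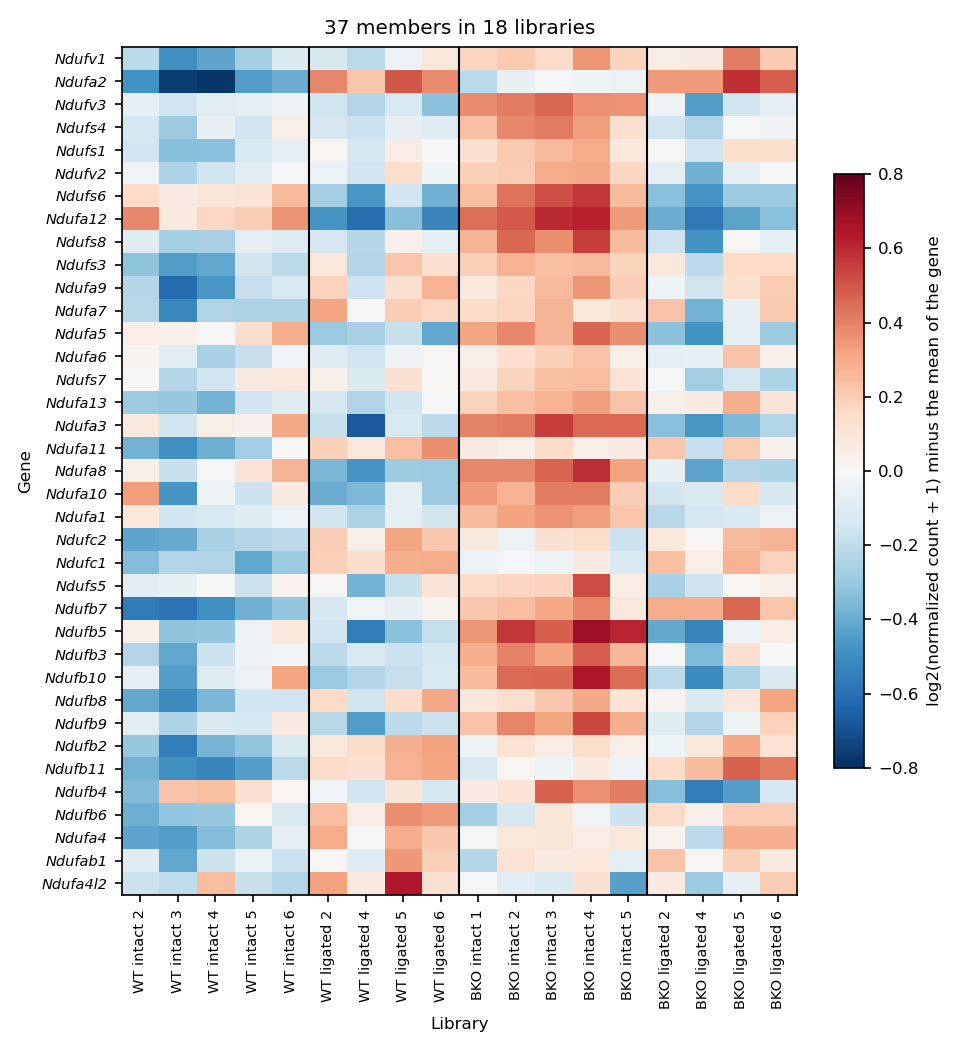
Log2(normalized count + 1) of each of 37 of the genes (rows, ordered by part of the complex and by knockout effect in intact limbs) in each of the 18 libraries (columns), minus the mean of the gene. BKO intact libraries are above the mean for most genes, and Ndufa12, Ndufs6 and Ndufa3 are below it in ligated libraries.

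The 4 processed pseudogenes left out carry the names of members. Ndufb4c, at a mean of 663, had more counts than Ndufb4 itself, at 301, and how the counting split reads between them is uncertain. Ndufb4c was at 0.28 ± 0.10 with knockout in intact limbs (adjusted p = 0.0555), at -0.49 with ligation in WT (adjusted p = 8.40e-04) and at -0.85 in BKO (adjusted p = 1.64e-06, limma). Ndufb4 was at 0.23, -0.10 and -0.65 in the same comparisons. The other pseudogenes were low, with means of 13.6 for Ndufab1-ps, 1.86 for Ndufs6b and 1.83 for Ndufa11b.

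The subunits encoded in mitochondrial DNA, which form the proton pumps of the membrane arm, were lower in BKO than in WT intact limbs in 4 of 7 cases and higher in 0 (median log2 fold change -0.68). Of all genes, 9.75% were lower and 8.56% higher. Their summed normalized count was 815232 ± 76092 in WT intact, 548835 ± 60209.9 in BKO intact, 286784 ± 48897 in WT ligated and 339651 ± 62757 in BKO ligated limbs (SD). With knockout in intact limbs, the log2 fold change was -0.99 for mt-Nd5 (adjusted p = 1.30e-04, limma), -0.74 for mt-Nd4, -0.68 for mt-Nd2 and -0.51 for mt-Nd6. Ligation in WT lowered 5 of the 7 (all genes, 21.1%), with mt-Nd1 at -1.79 and mt-Nd2 at -1.73. In BKO 3 fell, mt-Nd1, mt-Nd2 and mt-Nd6, and mt-Nd4l rose by 1.46 (all genes, 25.1% lower and 22.1% higher). The interaction was higher for 5 of 7 (all genes, 3.04%), with a median of 0.97, opposite in sign to the median of the nuclear members. The mt-Rnr2 gene, encoded in the same genome, took 38.1% to 55.5% of the reads in ligated limbs and 31.9% to 36.1% in intact limbs.

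Assembly factors build the complex and are not part of it. In intact limbs 7 of 19 tested were higher in BKO (all genes, 8.56%), among them Ndufaf3 (0.78), which acts early on the quinone-binding part, Ndufaf8 (0.64), Timmdc1 (0.37) and Ndufaf6 (0.46). Their median was 0.28. With ligation in WT 5 were lower and 4 higher, shares near those of all genes (21.1% and 18.7%). With ligation in BKO 12 were lower and 0 higher (all genes, 25.1% and 22.1%), and the smallest p was that of Dmac2, a factor of the distal membrane arm (260.2 ± 30.0 in BKO intact and 125 ± 13.4 in BKO ligated limbs, SD, log2 fold change -1.05). In ligated limbs 1 of the 19 was lower in BKO (all genes, 4.68%), Ndufaf5, which modifies Ndufs7, at -0.81 ± 0.16 (adjusted p = 0.00182, limma).

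The nuclear subunits of the other respiratory complexes were counted beside the members. With knockout in intact limbs 41 of these 45 genes rose (all genes, 8.56%), with a median of 0.45 (members, 0.39). A difference between both lists was not tested. With ligation 23 rose and 4 fell in WT (all genes, 18.7% and 21.1%), and 7 rose and 15 fell in BKO (22.1% and 25.1%). In the interaction 24 of the 45 were lower and 0 higher (all genes, 2.97% and 3.04%). The median there was -0.46 (members, -0.36). Of 15 known regulators of such genes, 2 were lower with knockout in intact limbs, Pprc1 (-0.79) and Ppard (-0.37), a share near that of all genes (9.75%). Ppargc1a, which encodes PGC-1 alpha, was at 691 ± 123 in WT and 684 ± 102 in BKO intact limbs (SD), a log2 fold change of -0.01 ± 0.17. It fell with ligation to 355 ± 49.2 in WT and 288 ± 88.7 in BKO. The oestrogen-related receptor genes Esrrb (-2.45 in WT, -2.97 in BKO) and Esrrg (-1.34 and -1.03), the GABP gene Gabpa (-0.87 and -0.60) and, chosen after its values were seen, Tfam, the transcription factor of mitochondrial DNA (-0.31 and -0.30), also fell with ligation in both genotypes. These 5 were all the regulators that fell. In WT 1 rose, Sirt3 (0.57), and in BKO 4 rose, Pprc1 (0.76), Ppargc1b (0.67), Gabpb1 (0.64) and Ppard (0.63), of which all but Ppard were named after their values were seen. The median of the 15 was 0.11 in WT and -0.29 in BKO, and of all genes 18.7% and 22.1% rose and 21.1% and 25.1% fell. The part of the marker levels of other cell types, of the mt-Rnr2 share and of transcript length in the members' changes was not tested beyond the settings given here.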

How the data were processed

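RNA-seq libraries of 18 tibialis anterior muscles were prepared as stranded total RNA, as the labels' protocols state. The submitters' processing notes name Trimmomatic 0.33, STAR 2.5.2, RSEM 1.3.3, DESeq2 and mm10, without their order. The sources used here name neither the annotation nor the strand setting. The table the authors deposited holds normalized counts, a signal without any correction for transcript length. Each is a whole number divided by 1 factor per library: within 0.001, 100% of the values came out whole, and these recovered reads gave the depth. Symbols, transcript lengths and positions come from GENCODE on the same build (GRCm38), and per-kb levels depend on those lengths.

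The 12262 genes with a mean of at least 10 were fitted with limma 3.58.1 (R 4.3.3) on log2(normalized count + 1). The model had 4 group means and an intensity trend. The added 1 understates changes of low genes. The threshold was an adjusted p of 0.05 (Benjamini-Hochberg, over all of them). The fit was tested on simulated counts that held no trend with transcript length and no outlying libraries. That test cannot show how the fit handles either. Alternatives were edgeR 4.0.16 and DESeq2 1.42.0 on recovered reads, other scalings, pseudocounts, filters and fits, a correction for transcript length, a replicate block, and leaving out each library. One more, chosen after seeing the data, left out BKO ligated libraries 4 and 5. The labels do not say that each sample came from a separate mouse, so the spread behind the p-values may be technical. Libraries of 1 group differed beyond sampling noise, so none was counted as the same library read again. That difference cannot show that they came from separate mice. The comparisons share libraries. The genes given in full were core genes, Ndufa4, Ndufa4l2, and per comparison the highest, the lowest and the smallest p, and for other lists up to 4 with the smallest p in each comparison. The values of 1 member, counted with the others, are not reported here. Members and lists were chosen with earlier results of these data known.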

Additional observations from a re-analysis of the deposited data

Results flagged for a closer look

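In 14 members the ligation effect differed between the genotypes by the interaction test (limma, adjusted p under 0.05), each with the lower effect in BKO. The log2 difference was -0.63 for Ndufa7, -0.62 for Ndufs8, -0.60 for Ndufa9, -0.58 for Ndufb10, -0.54 for Ndufs3, -0.54 for Ndufa11 and -0.52 for Ndufb8. It was -0.49 for Ndufb2, -0.47 for Ndufa4, -0.45 for Ndufv2, -0.45 for Ndufv3, -0.42 for Ndufs4, -0.40 for Ndufs7 and -0.34 for Ndufa1.

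In 7 of 152 groups of 4 or 5 libraries, 1 library lay far from the others by Dixon's ratio, which chance alone gives in about 1 in 20 groups. Ndufa10 was at 2109 normalized counts in BKO ligated 5 (the next, 1754) and Ndufa7 at 334 in WT intact 3 (next, 400.4). Ndufa4l2 was at 52.2 in WT intact 4 (next, 38.7) and Ndufa2 at 454 in BKO intact 1 (next, 507). In the BKO intact group Ndufa11 was at 561 in library 3 (next, 529), Ndufs5 at 677 in library 4 (next, 536) and Ndufv1 at 2939 in library 4 (next, 2654).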

How the results depend on the processing

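The medians of the 38 members kept their sign in 4 comparisons under every setting and library left out. For knockout in ligated limbs the median lay near 0 and took both signs. The 33 rises with knockout in intact limbs became 25 to 34 under the planned settings, and 24 of the genes passed under every one. Taking out transcript length moved the ligation effect in BKO to 8 higher (median -0.015), the knockout effect in ligated limbs to 5 higher and the interaction to 0 lower (median -0.17), and turned Ndufa11 in BKO from -0.0071 to 0.24 with ligation. For the interaction, DESeq2 gave 24 lower and no intensity trend 3. Without BKO ligated libraries 4 and 5 it was 2 lower, and knockout in ligated limbs gave 0 higher. That knockout count was 1 without a filter, with only the groups compared, or with no trend. Leaving out 1 library gave 1 to 2 for it, 2 to 4 higher with ligation in BKO and 5 to 21 lower for the interaction. Over all genes, the 737 calls of the interaction became 1158 by DESeq2, 450 without a trend, 465 with length taken out and 269 without BKO ligated 4 and 5, where knockout in ligated limbs gave 616 in place of 1084. Leaving out 1 library gave 402 (WT ligated 2) to 1015 (BKO ligated 6) for the interaction over all genes. Among member values that passed neither as reported nor under the alternative, 109 changed sign. The depth limits Ndufa4l2 most.

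The fits reported did not pair samples by replicate number. The correlation of deviations in same-numbered libraries was -0.064 to 0.12 over 15 pairs, some of them WT with BKO. Between intact and ligated limbs of the same genotype it was -0.064 to 0.048. Low correlations over all genes tested cannot exclude that same-numbered samples came from the same mouse. With a replicate block, 8 members were lower with ligation in WT, 1 higher in BKO, 0 higher with knockout in ligated limbs, 27 higher with knockout in intact limbs and 5 lower in the interaction. Over all genes the replicate block gave 379 calls of the interaction.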
